A study of Homo sapiens with 4 samples.

Results

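The proteasome is the large protease that degrades ubiquitin-tagged proteins in the cytosol and nucleus. Its 20S core is a barrel of alpha and beta rings with the active sites inside, the 19S cap binds, unfolds and feeds in the substrate, and dedicated chaperones put both together. Interferon-inducible beta subunits can take the place of the constitutive catalytic ones and form the immunoproteasome, which shapes the peptides shown on class I molecules. Amino acids released by the proteasome are a known source for protein synthesis when cells are starved. The genes described here are those whose symbol in the table is PSMA, PSMB, PSMC, PSMD, PSME, PSMF or PSMG followed by a number, plus POMP. This gave 51 identifiers with 49 symbols among 57820 in the table, and 48 of them passed the filter of a mean of at least 1 TPM, a length-scaled share of all transcripts, over the 4 libraries. TPM are scaled by transcript length, so levels of different genes can be set side by side.

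RNA came from 786-0, an established line of human renal cell carcinoma, kept in DMEM and 10% FBS. It carried either a short hairpin RNA against GLUD1 (shGLUD1, 2 libraries) or a non-targeting hairpin (shNT, 2 libraries), and GLUD1 encodes mitochondrial glutamate dehydrogenase. The cells of all 4 libraries, controls included, had been starved of amino acids for 12 h, so no fed state entered the comparison. The labels name neither the hairpin sequences nor whether replicates were separate cultures, so p-values rest on how far these libraries differ from each other, a spread that may be only technical.

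The targeted gene was read first. GLUD1 stood at 13.5 and 19.8 TPM in shGLUD1 and at 18.1 and 17.4 TPM in shNT, so a knockdown library was above both controls (log2 fold change -0.11, SE 0.19, limma adjusted p = 0.631). Its rescaled value, defined below, was -0.83 (adjusted p = 0.00233). Because TPM go against the label in that library, shGLUD1 below means the libraries labelled shGLUD1. Read totals are not kept in TPM, so depth is unknown, and genes above 0 numbered 19724 to 20489 per library. The median of all 12524 genes tested was 0.63 higher in shGLUD1 as a log2 fold change, and 56.7% of genes passed the limma test as higher and 7.77% as lower. Each fold change is therefore also given after median-ratio rescaling, which puts the median gene at no change, and is then called the rescaled value. Markers of the renal carcinoma line were present, with PAX8 at 5.18 to 8.75 TPM, although KRT18 was under 2 TPM in every library. Leukocyte markers summed to at most 1.36 TPM in any library and endothelial markers to at most 0.41 TPM. The 4 fibroblast markers summed to 16.8 and 15.3 TPM in shGLUD1 and 10.6 and 12.4 TPM in shNT, and COL1A1 among them was called higher on TPM (0.95, adjusted p = 0.00698) but not after rescaling (0.37). The 8 renal line markers summed to 3217 and 4129 TPM in shGLUD1 and 1111 and 1079 TPM in shNT, most of it from VIM at 2902 and 3756 TPM in shGLUD1 and 931 and 891 TPM in shNT. The 8 did not move alike, since 5 were called higher on TPM (VIM, CAV1, CA9, EPAS1 and KRT8), NNMT (-0.78) and KRT18 (-0.64) were called lower, and PAX8 (-0.38) was not called. The part of these shifts in the results was not tested. In bulk RNA, fewer cells of a kind and less RNA per cell cannot be told apart.

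In cells labelled shGLUD1 the proteasome genes did not move as a block. Of the 48 tested, 24 rose on TPM and 6 fell, and 18 did not pass; 62.5% were called, beside 64.5% of all genes tested. After rescaling, 5 of the 48 were higher and 24 lower, 10.4% and 50%, beside 23.2% and 27.9% of all genes. The median log2 fold change of the 48 was 0.33 on TPM and -0.38 rescaled, where that of all genes was 0.63 and 0.00. Under quantile normalization 17 of the 48 were higher and 7 lower, 35.4% and 14.6%, beside 23.5% and 22.1% of all genes. PSMB8, PSMB9, PSMD3, PSMD5, PSMD6, PSMD11 and PSME4 were higher on TPM and not called under quantile normalization, where PSMD5 was at -0.11, and PSMG4 was called lower there. The groups did not overlap in 40 of the 48 (32 higher and 8 lower in shGLUD1), 83.3% beside 83.4% of all genes. Among all genes 69.9% were higher and 13.5% lower in this sense. All 51 identifiers together held 1.17% and 1.22% of TPM in shGLUD1 and 1.07% and 1.03% in shNT.

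**Figure D1:**
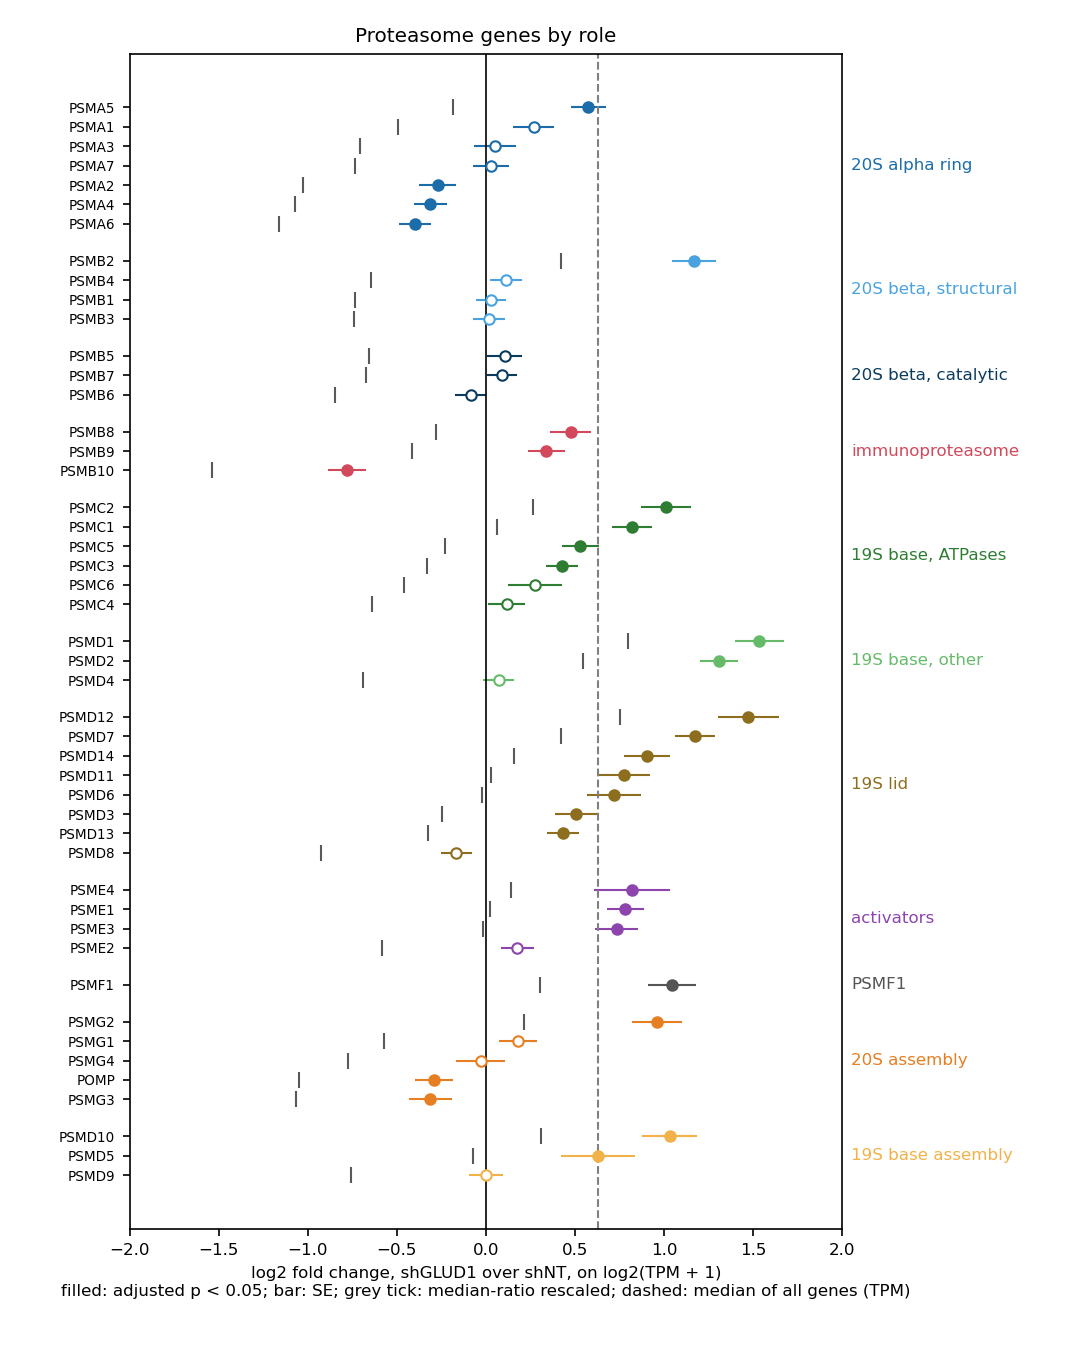
Log2 fold change (x axis, shGLUD1 over shNT on log2(TPM + 1)) of 47 proteasome genes, grouped by role; points are limma estimates with SE, filled where the adjusted p was under 0.05, grey ticks are rescaled values, and the dashed line is the median of all genes on TPM (0.63). The 19S subunits lie mostly right of 0 on TPM and around 0 rescaled, the 20S subunits mostly near 0 on TPM and left of 0 rescaled, and PSMB10 lies left of 0 on both.

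The 5 genes that were higher on both scales were PSMD1, PSMD2, PSMD7, PSMD12 and PSMB2, and the 6 that were lower on both were PSMB10, PSMA6, PSMA4, PSMA2, PSMG3 and POMP. PSMB9 was called higher on TPM and lower after rescaling. Another 18 rose on TPM with no call after rescaling, and 17 with no call on TPM were lower after rescaling. The extra identifier listed as PSMA2 was called on neither scale.

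Upstream sequence is shown for PSMD12, a 19S subunit among the largest increases, and for the immunoproteasome subunits PSMB8, PSMB9 and PSMB10, which did not move alike. Each window is the 250 bases before the RefSeq gene start on GRCh38.p14, read 5′ to 3′ on the gene's strand. Capitals mark matches, on either strand, to the antioxidant response element core TGACNNNGC, which NFE2L1 and NFE2L2 bind, the ETS motif CCGGAAG, the NF-Y motif CCAAT, the heat shock element or the core of the interferon response element. The last motif was added after the windows had been seen.
PSMD12 (chr17:67366578-67366827, minus strand): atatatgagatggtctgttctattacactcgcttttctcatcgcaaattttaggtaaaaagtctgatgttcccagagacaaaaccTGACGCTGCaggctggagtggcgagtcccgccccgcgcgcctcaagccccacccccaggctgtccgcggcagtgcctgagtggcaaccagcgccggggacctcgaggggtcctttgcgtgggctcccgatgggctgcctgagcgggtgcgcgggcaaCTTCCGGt
PSMB8 (chr6:32844680-32844929, minus strand): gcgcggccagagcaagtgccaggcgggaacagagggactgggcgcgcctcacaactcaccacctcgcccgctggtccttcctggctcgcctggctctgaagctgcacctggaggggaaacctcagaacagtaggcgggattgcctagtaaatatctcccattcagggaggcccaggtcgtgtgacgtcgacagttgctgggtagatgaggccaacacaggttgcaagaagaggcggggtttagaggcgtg
PSMB9 (chr6:32853942-32854191, plus strand): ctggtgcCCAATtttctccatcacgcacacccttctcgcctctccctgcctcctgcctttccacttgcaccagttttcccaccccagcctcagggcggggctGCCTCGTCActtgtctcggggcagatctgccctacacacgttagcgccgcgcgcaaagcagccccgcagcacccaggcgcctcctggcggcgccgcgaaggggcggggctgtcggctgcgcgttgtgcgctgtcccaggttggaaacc
PSMB10 (chr16:67936851-67937100, minus strand): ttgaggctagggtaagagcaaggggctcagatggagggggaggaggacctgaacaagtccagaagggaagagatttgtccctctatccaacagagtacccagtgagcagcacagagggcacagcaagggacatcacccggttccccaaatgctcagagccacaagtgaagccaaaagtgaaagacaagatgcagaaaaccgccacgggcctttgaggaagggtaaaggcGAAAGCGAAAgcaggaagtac

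PSMD12 held the antioxidant core, starting 165 bases before the gene start, and an ETS match 8 bases before it. The other genes higher on both scales lacked both. PSMD1, PSMD2 and PSMB2 held none of the 5 motifs, and PSMD7 held NF-Y alone. PSMB9 held an antioxidant core 148 bases before its start and an NF-Y match, PSMB10 held the interferon core 21 bases before its start, and PSMB8 held none of the 5. Windows were matched for 43 of the 49 symbols. The antioxidant core was in 11 of these 43 (25.6%), beside 11% of all 27305 windows, and the ETS motif in 11 (25.6%), beside 8.82%. NF-Y was in 18 (41.9%), beside 33%, the interferon core in 5 (11.6%), beside 3.07%, and the heat shock element in 0, beside 0.439%. The 5 with the interferon core were PSMA4, PSMB4, PSMB10, PSME2 and PSMG4. These are letter matches in a window of fixed length, and the windows of all genes were not matched to these for GC content.

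**Figure D2:**
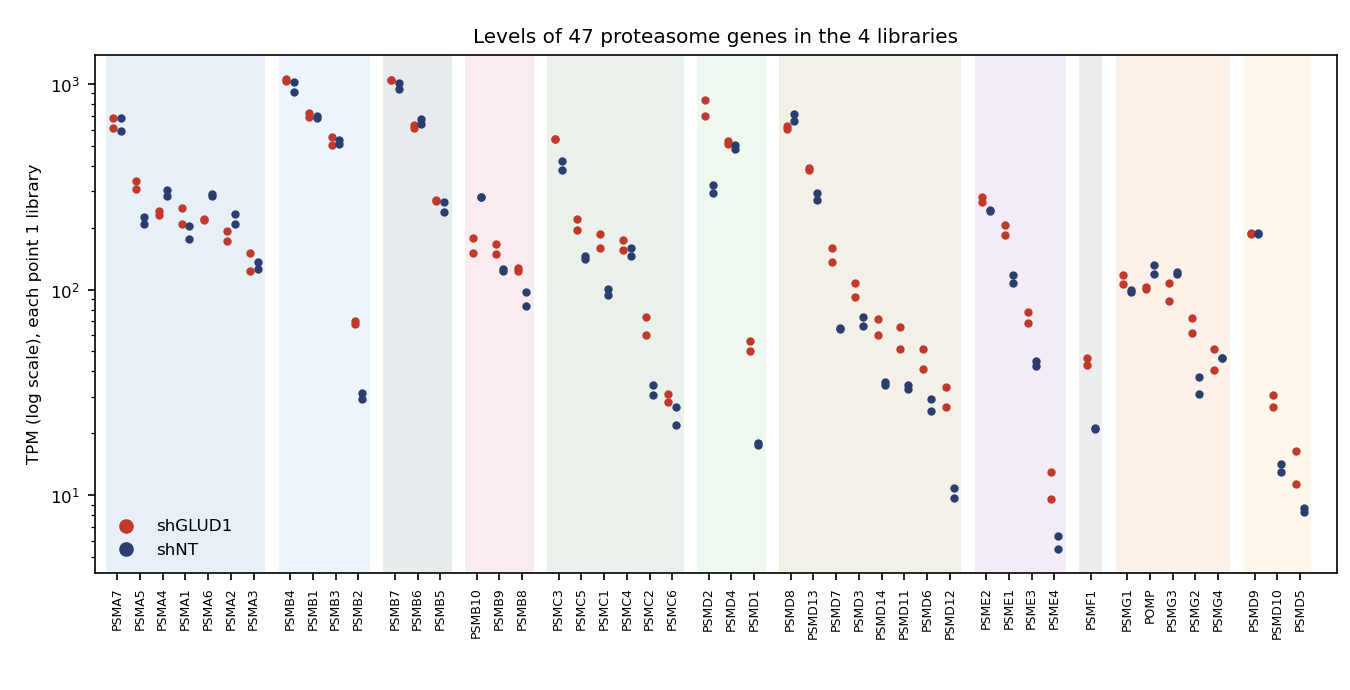
TPM (log axis) of the same 47 genes in each of the 4 libraries, grouped by role in the same order and sorted by the shGLUD1 mean; red points are shGLUD1 libraries and blue points shNT libraries. Levels span from 5.47 TPM for PSME4 to 1059 TPM for PSMB4, and the red points sit above the blue ones for PSMD1, PSMD2, PSMD12 and PSMB2 and below them for PSMB10.

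The 14 constitutive subunits of the 20S core kept their summed level on TPM. They summed to 6188 and 6323 TPM in shGLUD1 and to 6203 and 5953 TPM in shNT, so the groups overlapped. On TPM 2 of the 14 rose, 3 fell and 9 did not pass, with a median log2 fold change of 0.04. After rescaling 1 was higher and 12 lower, with a median of -0.72. Beside this, 56.7% of all genes tested were higher and 7.77% lower on TPM, and 23.2% and 27.9% after rescaling. Within a library the subunits differed widely although each is present in equal number in the particle, with a coefficient of variation of TPM across the 14 of 73.9% and 70.7% in shGLUD1 and 73.1% and 68.4% in shNT.

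The alpha ring forms the outer gate of the core. PSMA5 stood at 307 and 339 TPM in shGLUD1, against 208 and 225 TPM in shNT. It rose on TPM (log2 fold change 0.57, SE 0.10, limma adjusted p = 0.000537), and was not called after rescaling (-0.19). PSMA6 stood at 220.4 and 217 TPM in shGLUD1, against 292 and 286 TPM in shNT. It fell on TPM (-0.40, SE 0.09, adjusted p = 0.00297) and rescaled (-1.16), and both shGLUD1 libraries lay below both controls. PSMA4 and PSMA2 also fell, with PSMA4 at -0.31 on TPM (-1.07 rescaled) and PSMA2 at -0.27 (-1.03 rescaled). PSMA2 lost its TPM call without shGLUD1 replicate 1 or without either shNT library, and PSMA4 without shNT replicate 2. PSMA1, PSMA3 and PSMA7 were at 0.27, 0.05 and 0.03 on TPM and did not pass, and were lower after rescaling (-0.49, -0.71 and -0.73). PSMA8, the alpha subunit of the testis particle, was listed at 0 TPM in every library.

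The beta ring holds the active sites, and its structural members PSMB1, PSMB2, PSMB3 and PSMB4 carry none. PSMB2 stood apart from the other 3. It was at 68.2 and 70.3 TPM in shGLUD1, against 29.3 and 31.3 TPM in shNT (log2 fold change 1.17, SE 0.12, adjusted p = 2.83e-05, rescaled 0.42). It was also the lowest of the 14 core genes in every library, and at its level the groups were far apart. PSMB3 was at 553 and 507 TPM in shGLUD1 and at 536 and 510.4 TPM in shNT, so its groups overlapped (log2 fold change 0.02, SE 0.09, adjusted p = 0.871). PSMB1 and PSMB4 had log2 fold changes of 0.03 and 0.11 on TPM and did not pass. All 3 were lower after rescaling, with values between -0.74 and -0.65.

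The constitutive catalytic subunits did not pass the test on TPM. PSMB5, the chymotrypsin-like subunit that proteasome inhibitors of the clinic bind, was at 273 and 269 TPM in shGLUD1 and 268 and 237 TPM in shNT (log2 fold change 0.10, SE 0.10, adjusted p = 0.363). PSMB6, the caspase-like subunit, was at 631 and 609 TPM in shGLUD1 and 677 and 639 TPM in shNT (-0.08, SE 0.09, adjusted p = 0.405). PSMB7, the trypsin-like subunit, was at 1041 TPM in each shGLUD1 library and at 1009 and 948 TPM in shNT (0.09, SE 0.08, adjusted p = 0.365). The groups did not overlap for any of the 3, by small margins, and all 3 were lower after rescaling (-0.66, -0.85 and -0.67).

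The immunoproteasome subunits went in different directions on TPM, and each was below 0 after rescaling. PSMB10, which takes the place of PSMB7, was at 177 and 151 TPM in shGLUD1, against 282 TPM in each shNT library. It fell by 0.78 on the log2 scale (SE 0.10, adjusted p = 0.000123), and its rescaled value was -1.54, the lowest of the 48 genes on either scale. PSMB8, which takes the place of PSMB5, was at 123 and 127 TPM in shGLUD1, against 97.1 and 83.1 TPM in shNT. It rose on TPM (0.47, SE 0.11, adjusted p = 0.00384), and was not called after rescaling (-0.28). PSMB9, which takes the place of PSMB6, was at 167 and 149 TPM in shGLUD1, against 123 and 126 TPM in shNT. It was higher on TPM (0.34, SE 0.10, adjusted p = 0.0148) and lower after rescaling (-0.42, adjusted p = 0.036). PSMB8 lost its TPM call without shNT replicate 2, and PSMB9 lost it without shGLUD1 replicate 1 or without either shNT library.

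Ratios within a library cancel any single factor that scales the whole library, though not quantile normalization. The log2 ratio of PSMB10 to PSMB7 was -2.55 and -2.78 in shGLUD1 and -1.84 and -1.75 in shNT, a difference of -0.87. That of PSMB8 to PSMB5 was -1.14 and -1.07 in shGLUD1 and -1.45 and -1.50 in shNT, a difference of 0.37. That of PSMB9 to PSMB6 was -1.91 and -2.03 in shGLUD1 and -2.45 and -2.34 in shNT, a difference of 0.42. Groups did not overlap in any of these 3, and each had an exact two-sided permutation p of 0.333, the smallest that 2 against 2 libraries allow. The signs were the same under each scaling tried, although the PSMB9 to PSMB6 difference shrank to 0.08 and the PSMB8 to PSMB5 difference to 0.17 under quantile normalization. PSMB10 was the most abundant of the immunoproteasome subunits in shNT, and in shGLUD1 the 3 lay closer together, with a coefficient of variation of 18.4% and 9.19% in shGLUD1 and 59.8% and 63.9% in shNT. Their sum was 468 and 427 TPM in shGLUD1 and 502 and 491 TPM in shNT. PSMB11, the catalytic subunit of the thymus particle, was listed at 0 TPM in both shGLUD1 libraries and at 0.06 and 0 TPM in shNT.

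**Figure D3:**
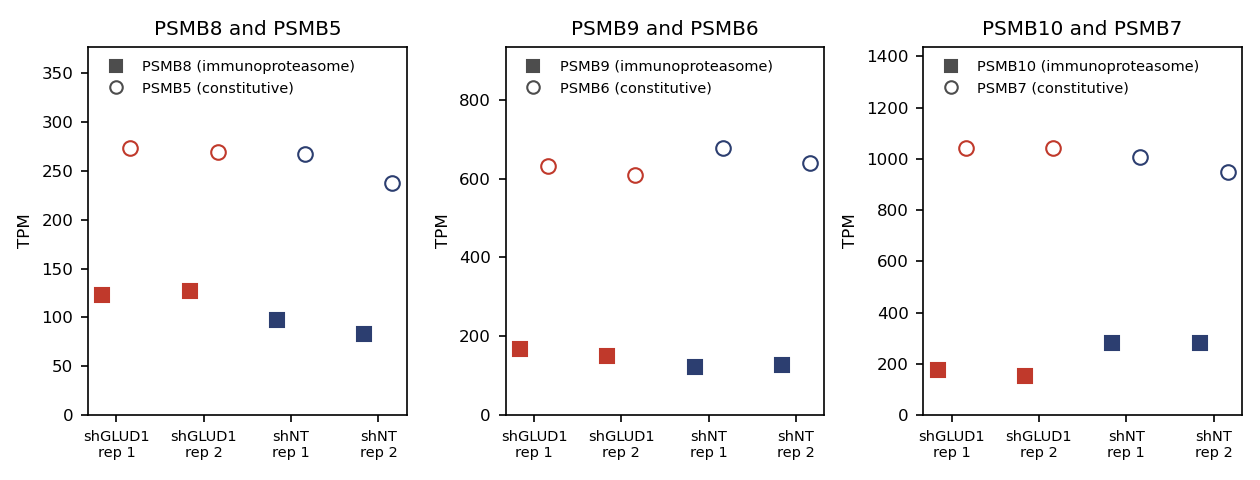
TPM (y axis, from 0) of each immunoproteasome subunit (filled squares) and the constitutive subunit it replaces (open circles) in each library, red for shGLUD1 and blue for shNT. Circles lie at about the same height in all 4 libraries, PSMB8 and PSMB9 squares are higher in shGLUD1 on TPM but not after rescaling, and PSMB10 squares are lower in shGLUD1 on both scales.

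The genes around the immunoproteasome were read from a list of class I antigen processing. Of 14 entries tested, 10 rose on TPM and 1 fell, and after rescaling 4 were higher and 4 lower. Across all genes tested 56.7% were higher and 7.77% lower on TPM, and 23.2% and 27.9% after rescaling. ERAP2, an aminopeptidase that trims peptides in the endoplasmic reticulum, was at 14.01 and 18.1 TPM in shGLUD1, against 1.81 and 2.58 TPM in shNT (log2 fold change 2.42, rescaled 1.79). TAP1, the peptide transporter gene that lies beside PSMB9 on chromosome 6, rose on TPM (0.76) and was not called after rescaling (0.01). B2M, the light chain of class I molecules, was the 1 that fell on TPM (-0.51, rescaled -1.27). Under quantile normalization B2M was not called (-0.19). TAP1 and B2M were named after their values had been seen.

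In the 19S cap the subunits were mostly higher on TPM and around the median gene after rescaling. The 17 genes are the PSMC and PSMD subunits, without the base chaperones. They summed to 3807 and 4126 TPM in shGLUD1 and to 2974 and 2796 TPM in shNT. On TPM 13 rose, none fell and 4 did not pass, with a median log2 fold change of 0.72. After rescaling 4 were higher and 4 lower, with a median of -0.02. For all genes tested, 56.7% were higher and 7.77% lower on TPM (median 0.63), and 23.2% and 27.9% after rescaling. The log2 ratio of summed 19S to summed 20S was -0.70 and -0.62 in shGLUD1 and -1.06 and -1.09 in shNT. The difference was 0.42, with groups that did not overlap and an exact two-sided permutation p of 0.333, the smallest possible. Without PSMD2, the most abundant of those that rose, it was 0.27. ADRM1 and SHFM1, cap subunits with other symbols, are not in these counts or sums. On TPM ADRM1 was called lower (-0.35) and SHFM1 was not called (-0.12). Both were lower after rescaling (-1.12 and -0.88).

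**Figure D4:**
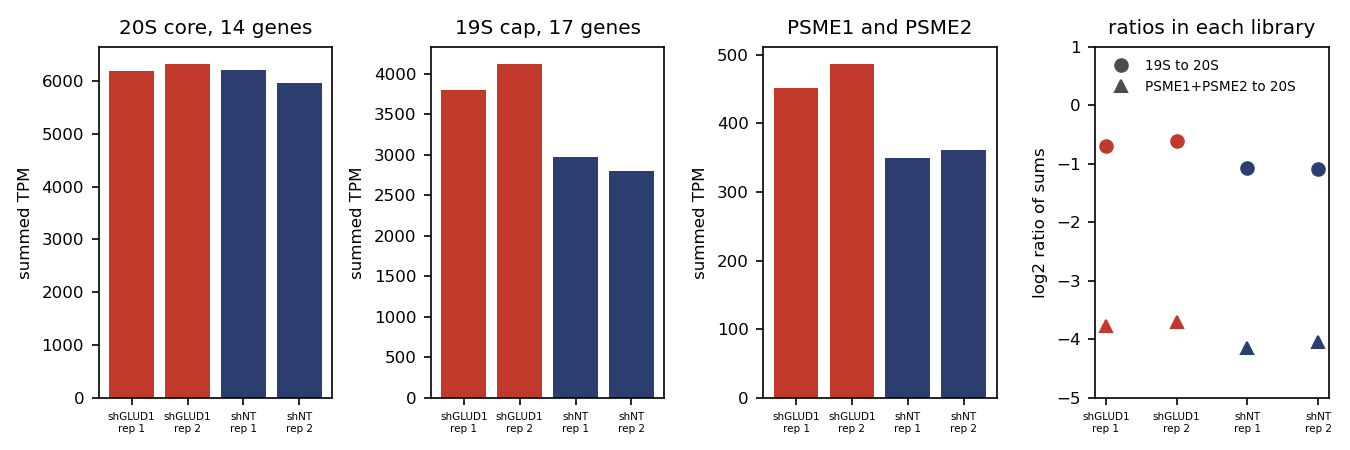
Summed TPM (bars, from 0) of the 20S core, the 19S cap and the PSME1 and PSME2 genes in each library, and the log2 ratio of the sums to the 20S sum (right, points), red for shGLUD1 and blue for shNT. The 20S bars are alike in the 4 libraries on TPM, the 19S bars are higher in shGLUD1, and both ratios are higher in shGLUD1.

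The base of the cap is a ring of AAA ATPases that unfolds the substrate, with large scaffold and receptor subunits. PSMD1, a scaffold subunit, was at 50.04 and 56.5 TPM in shGLUD1, against 17.5 and 17.9 TPM in shNT. Its log2 fold change of 1.53 (SE 0.14, adjusted p = 1.28e-05, rescaled 0.80) was the highest of the 48 genes on both scales. PSMD2, the other scaffold and a docking site for ubiquitin-like domains, was at 699.8 and 834 TPM in shGLUD1, against 324 and 293 TPM in shNT (1.31, SE 0.11, adjusted p = 7.1e-06, rescaled 0.55). PSMD4, a ubiquitin receptor of the same base, was at 510.0 and 526 TPM in shGLUD1 and 502 and 484 TPM in shNT (0.07, SE 0.09, adjusted p = 0.484), and was lower after rescaling (-0.69).

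The 6 ATPases ranged in their log2 fold changes from 0.12 to 1.01. PSMC2 was at 59.9 and 73.7 TPM in shGLUD1, against 30.7 and 34.4 TPM in shNT (1.01, SE 0.14, adjusted p = 0.000147), and was not called after rescaling (0.26). PSMC1, PSMC5 and PSMC3 rose on TPM (0.82, 0.53 and 0.43) but were not called after rescaling (0.06, -0.23 and -0.33). PSMC4 was at 156 and 175 TPM in shGLUD1 and at 159.5 and 146 TPM in shNT, so its groups overlapped (0.12, SE 0.11, adjusted p = 0.354). PSMC6 had a log2 fold change of 0.27 on TPM that did not pass. PSMC4 and PSMC6 were lower after rescaling (-0.64 and -0.46).

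The lid carries the deubiquitinase that removes the ubiquitin chain. PSMD12, whose upstream window is printed above, was at 26.9 and 33.7 TPM in shGLUD1, against 10.8 and 9.65 TPM in shNT (1.47, SE 0.17, adjusted p = 4.99e-05, rescaled 0.75). PSMD7 was at 136 and 160.0 TPM in shGLUD1, against 64.5 and 65.2 TPM in shNT (1.17, SE 0.11, adjusted p = 2.08e-05, rescaled 0.42). PSMD14, the deubiquitinase that pairs with PSMD7, rose on TPM (0.90) and was not called after rescaling (0.16). PSMD11, PSMD6, PSMD3 and PSMD13 rose on TPM (0.78, 0.72, 0.50 and 0.43), and none was called after rescaling, where they lay between -0.33 and 0.03. PSMD8 was the exception, at 622 and 604 TPM in shGLUD1 and 715 and 661 TPM in shNT (-0.17, SE 0.09, adjusted p = 0.117, rescaled -0.93, where it was called lower). It was also the most abundant lid gene, with the lowest lid gene, PSMD12, at 10.8 and 9.65 TPM in the same shNT libraries.

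Other caps can open the core without ubiquitin. PSME1 and PSME2 form the 11S ring that interferon induces. PSME1 was at 185 and 205 TPM in shGLUD1, against 108 and 118 TPM in shNT (log2 fold change 0.78, SE 0.11, adjusted p = 0.000127, rescaled 0.02, no call). PSME2, its partner, was at 266 and 282 TPM in shGLUD1, against 242 and 243 TPM in shNT (0.18, SE 0.09, adjusted p = 0.115), and was lower after rescaling (-0.58). PSME1 was the less abundant partner in every library. The log2 ratio of their sum to the 20S sum was -3.78 and -3.70 in shGLUD1 and -4.15 and -4.04 in shNT, a difference of 0.36 (exact two-sided permutation p = 0.333), which was 0.18 under quantile normalization.

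PSME3, the subunit of the nuclear 11S ring, was at 68.8 and 77.7 TPM in shGLUD1, against 44.8 and 42.4 TPM in shNT (0.73, SE 0.12, adjusted p = 0.000447, rescaled -0.02, no call). PSME4, a single-chain activator, was the lowest constitutive member, at 9.59 and 13.0 TPM in shGLUD1, against 5.47 and 6.36 TPM in shNT (0.82, SE 0.21, adjusted p = 0.00636, rescaled 0.14, no call). It lost its TPM call without shNT replicate 1. PSMF1, a binding protein of the core that inhibits it in the test tube, was at 42.8 and 46.6 TPM in shGLUD1, against 21.1 and 21.3 TPM in shNT (1.04, SE 0.13, adjusted p = 9.42e-05, rescaled 0.30, no call).

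Assembly chaperones of the core were split. PSMG2, which with PSMG1 gathers the alpha ring, was at 61.7 and 73.1 TPM in shGLUD1, against 31.0 and 37.4 TPM in shNT (0.96, SE 0.14, adjusted p = 0.000216, rescaled 0.21, no call). PSMG1, its partner, was at 107 and 117 TPM in shGLUD1 and 99.3 and 97.7 TPM in shNT (0.18, SE 0.11, adjusted p = 0.155), and was lower after rescaling (-0.58). In this pair, as in PSME1 and PSME2, the less abundant gene was the one that rose on TPM, with no call after rescaling. This did not hold for PSMG3 and PSMG4, where the less abundant PSMG4 did not rise (-0.03).

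PSMG3 and PSMG4 form the second chaperone pair of the alpha ring. PSMG3 was at 108 and 87.5 TPM in shGLUD1, against 119 and 122 TPM in shNT (-0.31, SE 0.12, adjusted p = 0.0403, rescaled -1.07). PSMG4 was at 51.3 and 40.5 TPM in shGLUD1 and at 46.5 and 46.7 TPM in shNT, with overlapping groups (-0.03, SE 0.14, adjusted p = 0.861, called lower after rescaling at -0.78). POMP, which guides beta subunits onto the alpha ring and is consumed by the finished core, was at 103 and 101 TPM in shGLUD1, against 119 and 131 TPM in shNT (-0.29, SE 0.11, adjusted p = 0.0311, rescaled -1.05). PSMG3 lost its TPM call in 3 of the 4 fits that left out a library, with shGLUD1 replicate 1 the exception, and POMP lost it in each of the 4.

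Of the chaperones of the 19S base, PSMD10 (gankyrin) was at 27.0 and 30.7 TPM in shGLUD1, against 13.0 and 14.2 TPM in shNT (1.03, SE 0.15, adjusted p = 0.000243, rescaled 0.31, no call). PSMD5 was at 11.4 and 16.4 TPM in shGLUD1, against 8.71 and 8.30 TPM in shNT (0.63, SE 0.21, adjusted p = 0.0203, rescaled -0.07, no call), and lost its TPM call without shGLUD1 replicate 2 or without either shNT library. PSMD9 was at 186 and 188 TPM in shGLUD1 and at 186 and 188 TPM in shNT (0.00, SE 0.09, adjusted p = 0.992, rescaled -0.76, where it was called lower).

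Transcript length moved with these differences. Spearman's rho between the log2 fold change on TPM and the length of the longest coding transcript was 0.39 across 12258 genes and 0.51 across 47 of the proteasome genes, a description across genes that share the same 4 libraries. The 13 core genes with a length had a median of 1029 nt and the 17 cap genes one of 1991 nt. With trends in length and GC content removed from each library, 10 of the 13 core genes were higher and 1 lower (median 0.39), and 15 of the 17 cap genes were higher and none lower (median 0.70). Of all 12258 genes so corrected, 60.2% were higher and 6.09% lower, with a median of 0.62. With PSMB3, which had no length, left out of the 20S sum, the difference in the 19S to 20S ratio was then 0.25. PSMB10 was still lower (-0.35, limma adjusted p = 0.00957). PSMB6, with -0.08 and no call before, was then called higher (0.39), and POMP, PSMG3, PSMA2, PSMA6 and PSMD5 were no longer called. The lengths are those of the annotation and not of the expressed isoform, which matters for PSMA4 with an assigned 4411 nt, and the part of length in the results was not tested further.

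**Figure D5:**
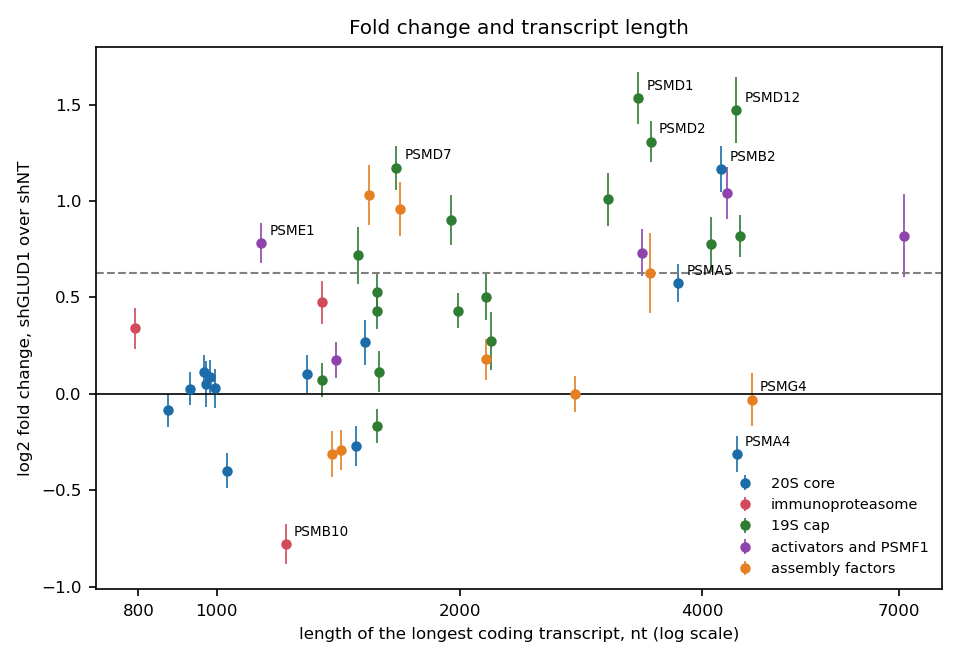
Log2 fold change on TPM (y axis, shGLUD1 over shNT, bars are SE) against the length of the longest coding transcript (x axis, log scale) for 46 proteasome genes coloured by role; the dashed line is the median of all genes (0.63). PSMD1, PSMD2, PSMD12 and PSMB2 are long and lie above the dashed line on TPM and above 0 after rescaling, PSMG4 and PSMA4 are long and lie at or below 0, and PSMB10 is the lowest point.

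Proteins that bind or feed the proteasome, and the cap subunits ADRM1 and SHFM1, were read from a list of 15 entries, all tested. On TPM 12 rose and 1 fell, and after rescaling 10 were higher and 3 lower, with medians of 1.32 and 0.60. Over all genes tested 56.7% were higher and 7.77% lower on TPM, and 23.2% and 27.9% after rescaling. RAD23B, a shuttle that carries ubiquitinated proteins to the cap, was at 53.2 and 80.0 TPM in shGLUD1, against 12.2 and 15.2 TPM in shNT (log2 fold change 2.18, rescaled 1.45). KIAA0368, a proteasome-binding scaffold, was at 16.4 and 19.7 TPM in shGLUD1, against 3.25 and 4.85 TPM in shNT (1.93, rescaled 1.26). The cap's 2 other deubiquitinases also rose, USP14 by 1.87 (rescaled 1.17) and UCHL5 by 1.41 (rescaled 0.78). ADRM1, the receptor that anchors UCHL5, was the 1 that fell, at 412 ± 14.7 TPM in shGLUD1 and 527 ± 3.51 TPM in shNT (SD, n = 2 each; -0.35, limma adjusted p = 0.00457, rescaled -1.12). With length and GC trends removed ADRM1 was not called (0.06). USP14, UCHL5, ADRM1 and SHFM1 were named after their values had been seen.

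NFE2L1 is a membrane-bound transcription factor that, once freed and cut, drives proteasome genes when proteasome activity falls. Of 11 genes of its pathway tested, 9 rose on TPM and 1 fell, and after rescaling 3 were higher and 5 lower. Among all genes tested 56.7% were higher and 7.77% lower on TPM, and 23.2% and 27.9% after rescaling. NFE2L1 itself was at 123 and 151 TPM in shGLUD1, against 104 and 97.7 TPM in shNT (0.44, adjusted p = 0.00827), and was lower after rescaling (-0.32, adjusted p = 0.0401). The largest changes were in FAF2, an adaptor of the VCP segregase (1.52, rescaled 0.93), and VCP itself (1.20, rescaled 0.44). MAFF, a small MAF partner, was the 1 that fell (-0.57, rescaled -1.30). DDI2, the protease that cuts NFE2L1, was listed at 0.82 and 0.99 TPM in shGLUD1 and at 0.58 and 0.48 TPM in shNT and did not pass the filter. NFE2L1, MAFF and DDI2 were named after their values had been seen.

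Some levels depend on how reads were shared between neighbours. In the annotation 17 of the genes overlap another gene of at least 1 TPM, 16 of them on the opposite strand, and counting is not stated to use strand. PSMB8 and PSMB9 overlap each other by 568 bases, PSMB9 overlaps TAP1, and PSMB10 shares 1516 bases with a gene on its own strand (AC040162.1, 5.44 and 4.37 TPM in shGLUD1, 8.18 and 7.90 TPM in shNT). The extra identifiers ENSG00000256206, listed as PSMA1 at 0 to 0.14 TPM, and ENSG00000256646, listed as PSMA2 at 1.48 and 6.42 TPM in shGLUD1 and 3.15 and 1.84 TPM in shNT, overlap those genes on the same strand and carry other names in GENCODE release 29.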

How the data were processed

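The authors deposited one table of TPM per gene, with 57820 identifiers and 1 column per library. Bowtie 0.12.2 and the builds mm8 and hg38 appear, with no role, in the submitters' processing notes. The quantifier is not given in the sources used here. A TruSeq kit and 1 µg of RNA went into each library, per the labels' protocols. TPM keep no depth, and a fall of abundant transcripts raises all others.

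Fold changes are on log2(TPM + 1), which understates those of low genes. The filter kept means from 1 TPM up, and limma 3.58.1 (R 4.3.3, trend = TRUE) was fitted on group alone, with Benjamini-Hochberg adjustment over all 12524 genes and a threshold of 0.05. The fit was tested on simulated data. Ratios were tested by exact permutation of the libraries. Lengths, GC content and overlaps came from GENCODE release 29 by identifier (52338 of 57820 matched, 50 of the 51 proteasome identifiers; PSMB3 had none), upstream windows from RefSeq. Python 3.11.15 with pandas 2.3.3 and matplotlib 3.10.9 was used.

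Alternatives were a pseudocount of 0.1 TPM, no filter (genes at 0 in every library left out), a filter at 5 TPM, median-ratio rescaling, quantile normalization, no variance trend, a replicate block, length and GC trends removed by loess, and leaving out each library. Leaving PSMD2 or PSMB2 out of the sums was added after seeing the data. Genes, role groups and lists were chosen with earlier results of these data known. By the naming rule each gene is named, catalytic subunits, activators and assembly factors with each library's value, other roles by the largest and smallest change, and lists by the 2 largest changes. Some genes of these lists are not reported here.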

Additional observations from a re-analysis of the deposited data

How the results depend on the processing

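Median-ratio rescaling turned the sign of 24 of the 48 genes, counting those called in either setting. After median-ratio rescaling the median of the 48 genes was -0.38 (0.12 under quantile normalization, 0.48 with length and GC trends removed), 5 were higher and 24 lower. Quantile normalization gave 17 higher and 7 lower. Genes lower in shGLUD1 numbered 3 without a filter, 1 without a variance trend and 2 with length and GC trends removed. With a library left out, 21 to 25 genes were higher, 2 to 4 lower, the median was 0.30 to 0.41, and 22 of 30 calls were kept in each of the 4 fits. Without a library, an arm of 1 is assumed to vary like the other.

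These were PSMB1 (-0.73), PSMB3 (-0.74), PSMB4 (-0.65), PSMB5 (-0.66), PSMB7 (-0.67), PSMB8 (-0.28), PSMB9 (-0.42), PSMA1 (-0.49), PSMA3 (-0.71), PSMA5 (-0.19), PSMA7 (-0.73), PSMC3 (-0.33), PSMC4 (-0.64), PSMC5 (-0.23), PSMC6 (-0.46), PSMD3 (-0.25), PSMD4 (-0.69), PSMD5 (-0.071), PSMD6 (-0.023), PSMD9 (-0.76), PSMD13 (-0.33), PSME2 (-0.58), PSME3 (-0.016) and PSMG1 (-0.58). Rescaling lowers the fold changes of abundant genes by more than the 0.63 shift of the median gene, as for PSMB7 (0.09 to -0.67). Low genes drop less, as for the extra PSMA2 identifier (0.32 to -0.24). Counted in the same way, PSMD5 turned under quantile normalization (-0.11), and PSMB6 (0.39), POMP (0.032) and PSMG3 (0.057) with length and GC trends removed. Genes called in neither setting also turned: PSMA3 (-0.19), PSMB6 (0.034), PSMC4 (-0.08), PSMC6 (-0.30), PSMD9 (-0.17), PSMG1 (-0.12) and the extra PSMA2 identifier (-0.40) under quantile normalization, that identifier (-0.24) after rescaling, and PSMD8 (0.078) and PSMD9 (-0.10) with length and GC trends removed. With a library left out, uncalled signs turned at least once for PSMA3, PSMA7, PSMB1, PSMB3, PSMD9, PSMG4 and that identifier. The 5 ratio differences kept their sign in each setting tried, the 19S to 20S one between 0.25 and 0.46 and the 11S to 20S one between 0.18 and 0.41. With length and GC trends removed, PSMB3 was not in the 20S sum.

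Same-numbered libraries shared little (r = 0.039 across 12524 genes). The labels do not say what the number stands for, and this r cannot show whether it marks a shared day or culture. With a replicate block 24 genes were higher and 6 lower, as without. Depth is unknown, so no detection limit can be given for PSMA8 or PSMB11.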

Other observations

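Abundant transcripts that encode ubiquitin were among those that fell. UBB, a polyubiquitin gene, was at 1945 and 2001 TPM in shGLUD1, against 4667 and 4425 TPM in shNT (log2 fold change -1.20, limma adjusted p = 3.07e-06, rescaled -1.97). RPS27A, which encodes ubiquitin fused to a ribosomal protein, was at 2008 and 1841 TPM in shGLUD1, against 2851 and 3175 TPM in shNT (-0.65, rescaled -1.41). The activating enzyme UBA1 was at 109 and 118 TPM in shGLUD1, against 48.6 and 47.1 TPM in shNT (1.23, rescaled 0.48). The list had 10 genes: 6 were called higher and 3 lower on TPM, against 2 and 4 on the rescaled values. Of all genes tested, 56.7% were higher and 7.77% lower on TPM, and 23.2% and 27.9% after rescaling. RPS27A was named after its values had been seen.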
